A study of Mus musculus with 26 samples.

Results

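The immunoglobulin loci were examined as 3 intervals of the mm10 mouse genome, the heavy-chain locus Igh (chr12:113256204-116009954), the kappa light-chain locus Igk (chr6:67555636-70726754) and the lambda light-chain locus Igl (chr16:19061752-19260844). Every H3K4me3 peak that overlapped an interval by at least 1 bp was taken, which gave 245 of 48054 peaks in Early-B cells and 90 of 31414 peaks in progenitors, together 335 of 79468. The choice used position alone and no measured value. Early-B cells were Ebf1-/- progenitors that carried the MigR1-EBF1.ER vector and were grown for 2 days on OP9, a bone marrow stromal line, with 4-O-Hydroxy-tamoxifen, IL-7, SCF and FLT3-L. The progenitors were Ebf1-/- cells, and their culture is not stated in the labels. Both groups thus carry the Ebf1-/- genotype, and EBF1 was supplied to the Early-B cells by a retroviral vector, as the tamoxifen-responsive fusion EBF1.ER. Of 26 samples in the labels, 2 immunoprecipitated and 2 input samples per group belong to this assay, and the authors deposited 1 peak list per group. No replicate spread could be measured, so values are given without a test, and read depth is unknown.

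An antibody chain is encoded by a variable (V) and a joining (J) segment, with a diversity (D) segment between them in the heavy chain, cut and joined by the RAG1 and RAG2 recombinase upstream of a constant gene. In B cell development the heavy chain is joined before the light chains, and unrearranged segments are transcribed from germline promoters around the time they become accessible. H3K4me3 marks active promoters, and RAG2 binds it through its PHD finger. EBF1 is the transcription factor that, with PAX5, sets up the B cell programme.

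Promoter sequences were at hand for 12 genes inside the 3 loci, none of them a V, D, J or constant segment, and 3 of these promoters met a peak. A pair is shown: Gm46961 for the peak that takes in the kappa J segments, and Gm40899 for the second strongest V peak of Igh in progenitors. The third, that of Gm30948, met weak peaks in both lists and is not shown. Gm46961 is a long non-coding RNA gene next to the kappa J segments, and its promoter met a peak in Early-B cells and none in progenitors. That peak covered only the first 75 of the 300 printed bases and did not reach the start. Gm40899 is a long non-coding RNA gene among the heavy-chain V segments, and its promoter met a peak in both. Both are from RefSeq on GRCm38.p6, the assembly of mm10, run from 250 bases before to 50 after the start, and carry the E-box motif CANNTG in capitals. E-boxes are the letters bound by E2A proteins, partners of EBF1.
Gm46961 promoter, chr6:70718827-70719126, minus strand: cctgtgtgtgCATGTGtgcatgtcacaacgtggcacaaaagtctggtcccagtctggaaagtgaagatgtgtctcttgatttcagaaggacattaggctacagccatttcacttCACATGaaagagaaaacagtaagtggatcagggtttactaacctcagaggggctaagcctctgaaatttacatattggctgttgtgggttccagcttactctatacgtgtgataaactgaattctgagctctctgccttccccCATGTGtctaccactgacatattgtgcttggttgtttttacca
Gm40899 promoter, chr12:114764158-114764457, plus strand: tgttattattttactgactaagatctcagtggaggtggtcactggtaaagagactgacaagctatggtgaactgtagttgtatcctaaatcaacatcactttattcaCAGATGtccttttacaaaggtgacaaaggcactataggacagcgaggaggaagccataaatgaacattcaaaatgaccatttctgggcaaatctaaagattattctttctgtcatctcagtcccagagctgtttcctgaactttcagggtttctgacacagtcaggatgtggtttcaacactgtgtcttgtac
The Gm46961 window held 3 E-boxes, of which only the first printed lay under the peak, and the Gm40899 window held 1. Of 32851 RefSeq promoters of the same length, 72.3% held at least 1. The octamer ATGCAAAT, which is typical of immunoglobulin promoters, was in neither window and in 1.74% of all promoters. The recombination heptamer CACAGTG was in the Gm40899 window, sharing no base with its E-box, was not in the Gm46961 window, and was in 6.81% of all promoters. All 3 motifs were searched on both strands, and a match describes letters and not a bound site.

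The kappa locus separated the lists most. Igk held 119 Early-B peaks and 7 progenitor peaks, a ratio of 17.0, where the whole lists stand at 1.53. Of the Early-B peaks in Igk, 116 (97.5%) met no progenitor peak, against 50.4% of all Early-B peaks. Of the 7 progenitor peaks, 4 (57.1%) met no Early-B peak, against 22.8% of all progenitor peaks. In the deposited lists the heavy-chain locus held 121 Early-B peaks, of which 60 (49.6%) were private, and 82 progenitor peaks, of which 20 (24.4%) were private, both shares near those of the whole lists. Stricter lists parted from this. At a false discovery rate (q) of at most 0.05 in both lists, 69.2% of Early-B peaks in Igh were private, against 45.9% of all Early-B peaks, and 44.4% of progenitor peaks in Igh were private, against 16.2% of all progenitor peaks. With both lists cut, a peak also counts as private when its partner falls below the cut. Against the uncut other list, 31 of the 65 Early-B and 5 of the 36 progenitor peaks of Igh at that q were private. The like share of all peaks was not counted. Whether Igh stands apart from the whole lists at that q, once dropped partners are set aside, is thus not shown. Igl held 5 Early-B peaks and 1 progenitor peak.

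Early-B peaks covered 4.61% of the 3.17 Mb of Igk, and progenitor peaks covered 0.592%. In the 1 Mb stretches below and above Igk, Early-B peaks covered 4.53% and 5.65%, and progenitor peaks covered 3.06% and 3.83%. Early-B peaks numbered 37.5 per Mb in Igk and 30.0 and 34.0 per Mb in these flanks, whereas progenitor peaks numbered 2.21 per Mb in Igk and 22.0 and 16.0 per Mb in the flanks. In number and coverage, Early-B peaks of the kappa locus were thus close to those of its flanks, and progenitor peaks were sparser than in the flanks. In strength the Early-B peaks differed from the flanks: a −log10 p of at least 10 was reached by 17.6% of them in Igk, against 46.7% and 38.2% in the flanks below and above. The private share of Early-B peaks was 53.3% and 61.8% in the flanks. The flanks were chosen after the data were seen. In Igh, Early-B peaks numbered 43.9 per Mb and covered 4.69%, and progenitor peaks numbered 29.8 per Mb and covered 3.52%. The T cell receptor loci, the other loci cut by RAG, held 113 Early-B peaks, 34.5% of them private, and 92 progenitor peaks, 20.7% of them private. With the Early-B list shortened to the 31414 peaks of lowest p, Igk held 54 Early-B peaks against 7 progenitor peaks, while Igh held 62 Early-B peaks against 82 progenitor peaks, so that the order of the lists in Igh turned and that in Igk did not. The private share in Igh was then 46.8% of Early-B peaks, against 36.2% of the shortened list. It was 59.8% of progenitor peaks, against 34.3% of the progenitor list. The progenitor list was not cut, and 20 of its 82 Igh peaks were private against the whole Early-B list. Its further private peaks there are those whose Early-B partner was dropped.

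Most peaks of the loci were weak ones within their list. A q of at most 0.05 was met by 65 of 121 Igh and 54 of 119 Igk peaks in Early-B cells, against 66.8% of the whole list. In progenitors it was met by 36 of 82 Igh and 2 of 7 Igk peaks, against 66.6% of the whole list. A −log10 p of at least 10 was reached by 9 Igh and 21 Igk peaks in Early-B cells, against 40.0% of all Early-B peaks. It was reached by 10 Igh peaks and 1 Igk peak in progenitors, against 45.0% of all progenitor peaks. The median pileup, the authors' read coverage of a peak, was 18.5 in Igh and 14.3 in Igk in the Early-B list, whose median over all peaks was 20.8. In the progenitor list it was 15.8 in Igh and 13.8 in Igk, with 23.5 over all peaks. Median lengths were 807 bp in Igh and 848 bp in Igk for Early-B peaks, against 1164 bp over the list, and 784 bp and 272 bp for progenitor peaks, against 1231 bp. Pileup, fold enrichment, p and q are the authors' own values and place a peak within its own list; they do not measure change between lists. In bulk samples, fewer cells with the mark and less of it per cell cannot be told apart.

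Markers of cell types also differed between the lists. All 10 B lineage markers examined had a peak within 1 kb in the Early-B list, against 7 of 10 in the progenitor list. Vpreb1 and Igll1 had the same highest −log10 p in the Early-B list, 72.9, and may have met a single peak. Of 8 stromal markers, 8 had a peak in the Early-B list, with a highest −log10 p per gene of 1.25 to 35.0, and 3 in the progenitor list, with a highest of 15.5. T lineage markers had a peak in 5 of 6 cases in the Early-B list and 4 of 6 in the progenitor list, and myeloid markers in 1 of 5 and 2 of 5. A −log10 p of at least 10 was reached in the Early-B and progenitor lists at 9 and 6 B lineage markers and 2 and 1 stromal markers. For T lineage markers it was 3 and 3, and for myeloid markers 1 and 1. The share of all genes with a peak within 1 kb was not counted, and the Early-B list holds 1.53 times as many peaks. The part of stromal cells in the peaks of the immunoglobulin loci was not tested.

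The leading peak of Igh lay over the J segments in both lists. In Early-B cells it spanned chr12:113419974-113432343, 12370 bp, with a pileup of 245.5, a fold enrichment of 28.6 and a −log10 p of 308. In progenitors it spanned chr12:113422365-113431788, 9424 bp, with a pileup of 351.5, a fold enrichment of 35.3 and a −log10 p of 471. It ranked 23 by p among all Early-B peaks and 9 among all progenitor peaks, so it was among the strongest of either list. Both versions held Ighj1, Ighj2, Ighj3 and Ighj4, all 5783 bp between Ighj4 and Ighm, where the intronic heavy-chain enhancer lies, and Ighd4-1, the D segment next to J. The progenitor peak lay wholly within the Early-B peak. The Early-B peak ran further into Ighm, the mu constant gene, covering 2757 of its 3905 bases, against 366 in progenitors.

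**Figure D1:**
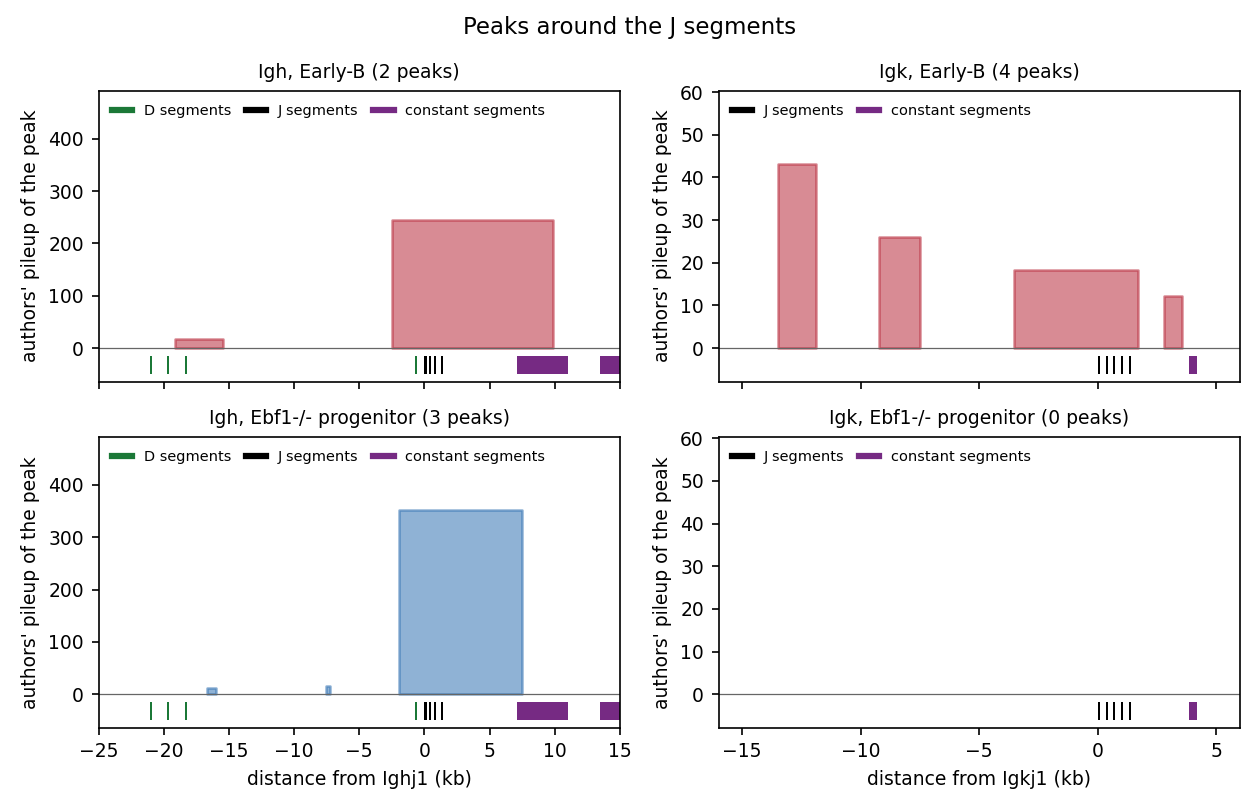
Peaks around the J segments of Igh (left) and Igk (right), with the distance from Ighj1 or Igkj1 in kb across and the authors' pileup of each peak as the height of its box, Early-B above and progenitor below. Igh has its leading peak over the J segments in both lists, where the pileup was 245.5 for Early-B and 351.5 for progenitors (not comparable between lists), whereas Igk has 4 Early-B peaks and no progenitor peak.

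The rest of the constant region of Igh was nearly bare. Beside the leading peak, 3 Early-B peaks and 2 progenitor peaks lay there, none over a constant gene. A peak near Igha, the IgA constant gene at the far end of the locus, was in both lists. It spanned 1013 bp in Early-B cells, 2305 bp from Igha, with a −log10 p of 1.28, and 3499 bp in progenitors, 1570 bp from Igha, with a −log10 p of 3.53. The further Early-B peaks lay 3899 bp from Ighg2b (2836 bp, −log10 p of 1.88) and 4959 bp from Ighg1 (705 bp, 2.00). The further progenitor peak lay 4567 bp from Ighd, the delta constant gene (343 bp, −log10 p of 2.27). Ighd itself met no peak in either list. Of 8 constant genes in Igh, Ighm alone met a peak, in both lists.

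The D portion, 96.3 kb from Ighd4-1 to Ighd5-1, was covered to 11.9% by Early-B peaks and to 4.57% by progenitor peaks. Of 20 D segments, 3 met an Early-B peak (Ighd4-1, Ighd3-2 and Ighd1-1) and 1 met a progenitor peak (Ighd4-1). Ighd3-2 lay under an Early-B peak of 3682 bp with a pileup of 16.9 and a −log10 p of 4.08. The progenitor peak inside that span was 680 bp long, with a −log10 p of 1.38, and ended 1721 bp from the segment. Ighd1-1 lay under an Early-B peak of 4763 bp with a −log10 p of 2.74. A pair of progenitor peaks of 1390 bp and 827 bp lay within the same span, both with a −log10 p of 1.17, and the nearer was 229 bp from Ighd1-1. The remaining Early-B peaks in D, with lengths of 314 bp, 587 bp and 287 bp, were private, and the middle one was the strongest of them with a pileup of 24.1 and a −log10 p of 8.68. A private progenitor peak of 243 bp, with a −log10 p of 2.93, lay 6571 bp from Ighd4-1. At both of these Early-B peaks the overlapping progenitor peaks were shorter and did not reach the segment. No peak of either list touched the 46.1 kb between D and V. Adam6b and Adam6a, genes for male fertility inside the locus, met no peak, with the nearest Early-B peaks 3691 bp and 18855 bp away and the nearest progenitor peaks 3767 bp and 58110 bp away.

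The V portion of Igh, 2.44 Mb, held 112 Early-B peaks and 75 progenitor peaks. Of 184 annotated V segments, 68 met an Early-B peak and 58 a progenitor peak, and 48 met both. Each V peak over a segment covered a single one. Functional segments carried most of these peaks: 61 of 121 met an Early-B peak and 51 of 121 a progenitor peak, whereas 7 of 63 V pseudogenes met a peak in each list. Of the V peaks, 44 of 112 (39.3%) in Early-B cells and 17 of 75 (22.7%) in progenitors lay on no V segment, with a median distance to the nearest segment of 3.90 kb and 3.52 kb. Peaks off segments had a median length of 619 bp, against 904 bp on segments, in Early-B cells, and 363 bp, against 878 bp, in progenitors.

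By the number of V segments met, the lists were farthest apart near D. The V portion was divided into 3 equal lengths of 812 kb by distance from J. Early-B peaks off segments were shorter than those on segments in the distal length (490 bp against 990 bp). They were not in the proximal (825.5 bp against 808 bp) or middle length (994 bp against 974 bp). Progenitor peaks off segments were shorter in the middle (397.5 bp against 828 bp) and distal length (363 bp against 1044.5 bp). The 2 off segments in the proximal length had a longer median (1052.5 bp against 538 bp). In the proximal length, 19 of 68 V segments met an Early-B peak and 7 of 68 a progenitor peak. In the middle length, 18 of 71 met an Early-B peak and 17 of 71 a progenitor peak. In the distal length, 31 of 45 met an Early-B peak and 34 of 45 a progenitor peak. All 9 progenitor peaks of the proximal length met an Early-B peak, while 18 of the 27 Early-B peaks there (66.7%) were private, set against 50.4% of the whole Early-B list. In the middle length 18 of the 29 Early-B peaks (62.1%) and 12 of the 23 progenitor peaks (52.2%) were private, the second set against 22.8% of the whole progenitor list. In the distal length 19 of the 56 Early-B peaks (33.9%) were private, and 6 of the 43 progenitor peaks (14.0%). The segments met in 1 list alone numbered 12 in the proximal length, all of them in Early-B cells, and 13 in the middle length, 7 in Early-B cells and 6 in progenitors. Progenitor peaks covered more of the distal length, 6.22% against 5.73% by Early-B peaks, and less of the proximal length, 0.739% against 3.40%. Where a single interval held peaks of both lists, the Early-B part was wider in 6 of 9 proximal intervals and the progenitor part in 24 of 37 distal intervals.

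**Figure D2:**
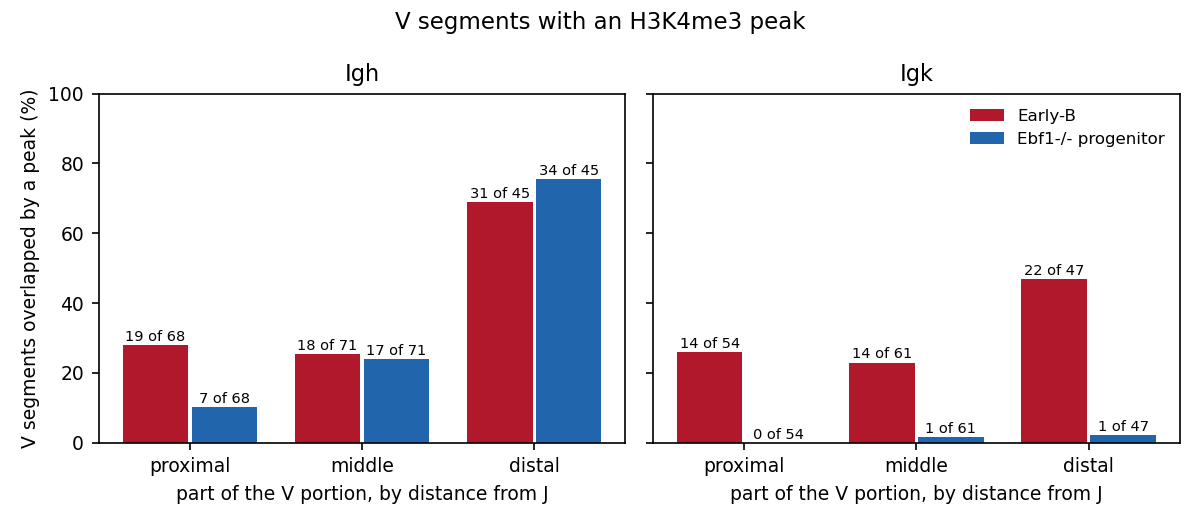
Share of annotated V segments overlapped by an H3K4me3 peak (percent) in the proximal, middle and distal length of the V portion of Igh (left) and Igk (right), Early-B bars left of progenitor bars, with counts above. In Igh the lists differ at the proximal segments (19 against 7 of 68), and in Igk at all 3 lengths.

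Of the 12 proximal segments met in Early-B cells alone, 8 belonged to Ighv5, long known as VH7183 and clustered near D, and the others were Ighv11-1, Ighv11-2, Ighv14-1 and the pseudogene Ighv4-2. Of the 21 segments of Ighv5, 8 met an Early-B peak and 0 a progenitor peak. The 8 were the pseudogene Ighv5-1 and Ighv5-4, Ighv5-6, Ighv5-9, Ighv5-9-1, Ighv5-12, Ighv5-15 and Ighv5-17, with a −log10 p of 1.80 to 38.4. The peak over Ighv5-15 spanned chr12:113826542-113828485 with a pileup of 62.1 and a fold enrichment of 7.86, and was the strongest private peak of the locus. The peak over Ighv5-12 had a pileup of 54.7, a fold enrichment of 3.64 and a −log10 p of 17.6. Both segments of Ighv11 also met an Early-B peak and no progenitor peak, with −log10 p of 3.47 and 4.48. Families Ighv2, Ighv3, Ighv6 and Ighv7, with 11, 8, 7 and 4 segments, met no peak in either list. All 4 Ighv9 segments met a peak in both lists. These peaks had a median length of 2229 bp in Early-B cells and 576 bp in progenitors.

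Farther out, the same segments often met both lists. In Ighv1, the large family also called J558, 36 of 92 segments met an Early-B peak and 39 of 92 a progenitor peak, and 30 met both. In Ighv8, or VH3609, 12 of 16 met an Early-B peak and 11 of 16 a progenitor peak, and 10 met both. The leading peaks differed in family between the lists. Of the 5 V peaks of lowest p in Early-B cells, 2 lay over Ighv8 segments, Ighv8-12 (pileup 64.0, −log10 p 18.8) and Ighv8-11 (63.3 and 17.5), and 2 over Ighv5 segments. Of the 5 in progenitors, 4 lay over Ighv1 segments: Ighv1-23 (pileup 84.5, −log10 p 51.9), Ighv1-77 (50.7 and 30.1), Ighv1-81 (45.5 and 26.7) and Ighv1-62-1 (37.0 and 18.9). In the other list the same segments met weaker peaks within that list. Ighv8-12 and Ighv8-11 had −log10 p of 1.58 and 2.78 in progenitors, and Ighv1-77, Ighv1-81 and Ighv1-62-1 had 4.47, 3.48 and 4.98 in Early-B cells. Families and their members were picked out after their values were seen.

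**Figure D3:**
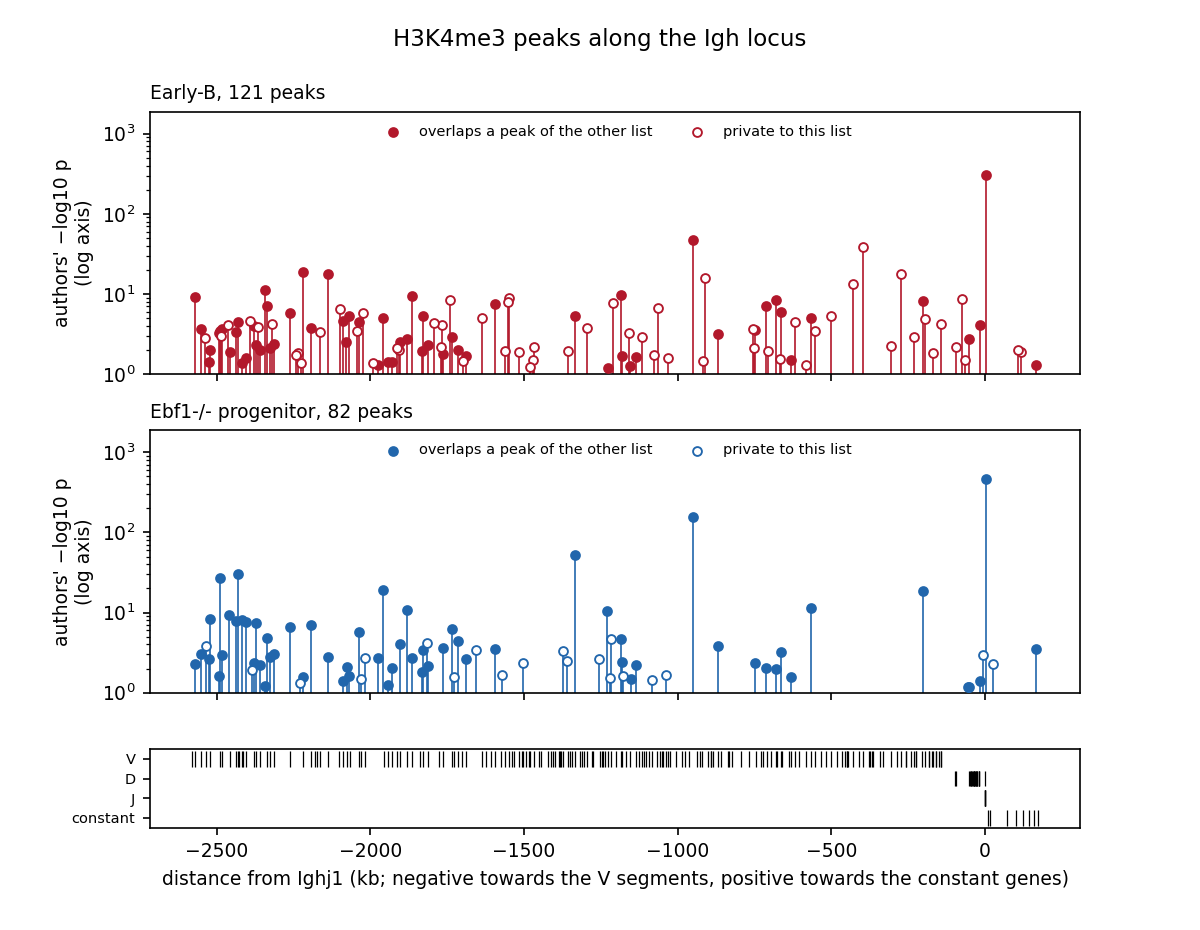
H3K4me3 peaks along Igh, with the distance of each peak's centre from Ighj1 in kb across and the authors' −log10 p on a log axis, Early-B above and progenitor below. Filled points overlap a peak of the other list, open points are private, and ticks at the bottom are annotated segments. At J the leading peak reaches 308 for Early-B and 471 for progenitors, and the proximal Early-B peaks are mostly open.

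The V peak of lowest p in both lists lay on no segment. It spanned chr12:114378503-114379780 in Early-B cells, with a pileup of 64.0, a fold enrichment of 8.91 and a −log10 p of 46.5. In progenitors it spanned chr12:114378304-114380062, with a pileup of 141.9, a fold enrichment of 18.3 and a −log10 p of 155. Its nearest segment was Ighv12-3, at 11684 bp in Early-B cells and 11485 bp in progenitors, and its nearest other annotated gene was Mir7094-1, at 89627 bp and 89345 bp. The peak over Ighv1-23 also took in the start of Gm40899, whose promoter is printed above. It was 3052 bp long in Early-B cells, with a −log10 p of 5.34, and 5024 bp in progenitors, with a −log10 p of 51.9. It covered 285 of the 300 printed bases in Early-B cells and all 300 in progenitors.

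Among Early-B peaks of the Igh V portion, pileup and fold enrichment often parted. The quotient of pileup by fold enrichment, chosen after the data were seen, had a median of 7.20 over all Early-B peaks and exceeded 8.66 in 5% of them. It exceeded 8.66 in 50 of 121 Igh peaks (41.3%) and in 3 of 119 Igk peaks (2.52%). The median was 7.73 in the proximal, 8.38 in the middle and 10.0 in the distal length of the Igh V portion. Over Ighv8 segments the Early-B median was 14.8, so that Ighv8-12, with a pileup of 64.0, had a fold enrichment of 3.24. Over Ighv5 segments, met by Early-B peaks alone, the median was 11.3, with values from 7.07 to 19.5. Over Ighv1 and Ighv9 segments it was 8.26 and 8.47, below 8.66. In progenitors the list's median was 7.65, and the distal Igh V peaks had a median of 7.52, with 8 of 82 Igh peaks (9.76%) above the list's 95th percentile of 8.39. Of these 8, 5 were among the 23 peaks of the middle length, and 2 of the 7 progenitor peaks of Igk were also above it. High quotients were thus seen in both lists, at a larger share of Igh peaks in the Early-B list. Their part in the order of the Igh peaks was not tested.

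**Figure D4:**
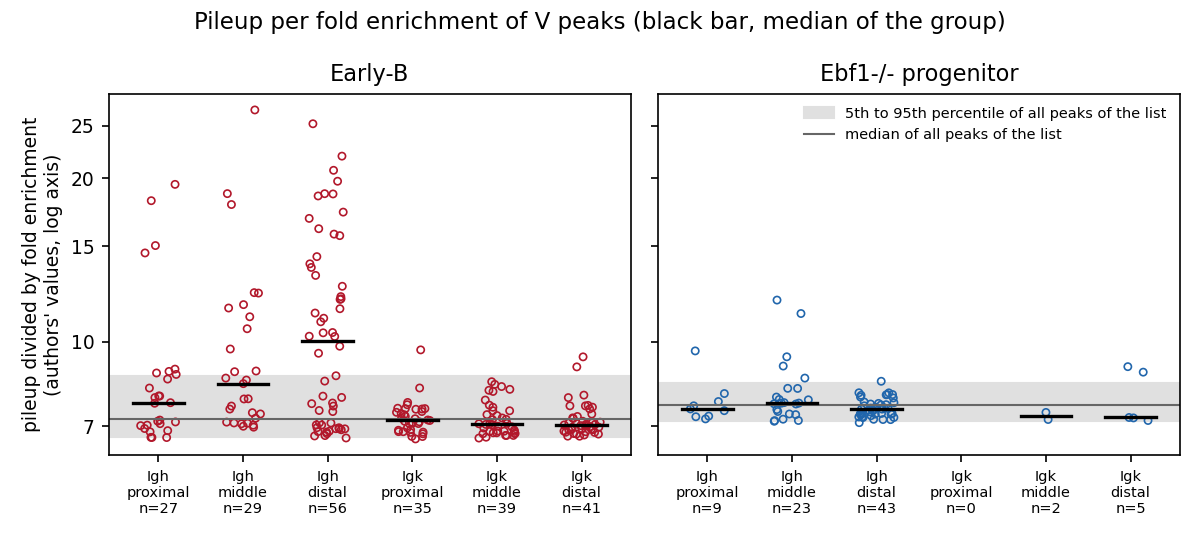
Pileup divided by fold enrichment (log axis) for each peak of the V portions, by locus and length, Early-B left and progenitor right. The grey band is the 5th to 95th percentile of the whole list, the grey line its median and the black bar the median of each group. Many Early-B peaks in Igh lie above the band (50 of 121 over the whole locus), and few in Igk do (3 of 119).

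In Igk, the V portion of 3.15 Mb held 115 Early-B peaks and 7 progenitor peaks. Of 162 V segments, 50 met an Early-B peak and 2 a progenitor peak, Igkv14-111 and Igkv10-95, both of which also met an Early-B peak. Among functional segments 44 of 102 met an Early-B peak and 2 of 102 a progenitor peak, and among pseudogenes 6 of 60 and 0 of 60. The Early-B peaks were spread over the whole portion. They met 14 of 54 V segments in the proximal, 14 of 61 in the middle and 22 of 47 in the distal length, of 1.05 Mb each, whereas progenitor peaks met 0 of 54, 1 of 61 and 1 of 47. Of the 115 Early-B peaks, 65 (56.5%) lay on no V segment, with a median distance of 5.41 kb. In Igkv1, 8 of 13 segments met an Early-B peak, in Igkv4, the largest family, 11 of 33, and in Igkv13 0 of 19, and none of these met a progenitor peak.

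The strongest Early-B peaks of the kappa V portion mostly lay between segments. The peak of lowest p spanned chr6:67795466-67797069, 3955 bp from Igkv14-130, with a pileup of 55.6 and a −log10 p of 34.2. The others among the leading 5, beside the wide peak described next, were 4529 bp from Igkv4-59 (−log10 p of 24.0), 723 bp from Igkv8-31 (5131 bp long, 23.9) and 9883 bp from Igkv8-28 (21.0). All 4 were absent from the progenitor list. At Igkv8 segments 4 of 13 met an Early-B peak, with a −log10 p of 8.39 to 16.3, and the one over Igkv8-34 was 5629 bp long.

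A single wide peak in the distal length was shared. It spanned chr6:68241919-68258234, 16316 bp, in Early-B cells, with a pileup of 45.1 and a −log10 p of 26.1. In progenitors it spanned chr6:68241959-68258309, 16351 bp, with a pileup of 81.7 and a −log10 p of 64.5. It was the 9th widest of all Early-B peaks and the 10th widest of all progenitor peaks, and 16276 bp were common to both. It took in the functional segment Igkv14-111 and the pseudogene Gm25436 near its end. In progenitors it made up most of the 18.8 kb covered by progenitor peaks in Igk.

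The other shared peaks were small. At Igkv10-95 the peak had 848 bp and a −log10 p of 3.18 in Early-B cells and 1136 bp and 1.95 in progenitors. A peak on no segment at the distal end, near chr6:67698867-67699702, had 836 bp and a −log10 p of 6.10 in Early-B cells and 223 bp and 1.91 in progenitors. The 4 private progenitor peaks of Igk were 204 to 316 bp long, with a −log10 p of 1.34 to 6.76, and lay on no segment. The progenitor list thus held little in Igk apart from the wide peak.

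**Figure D5:**
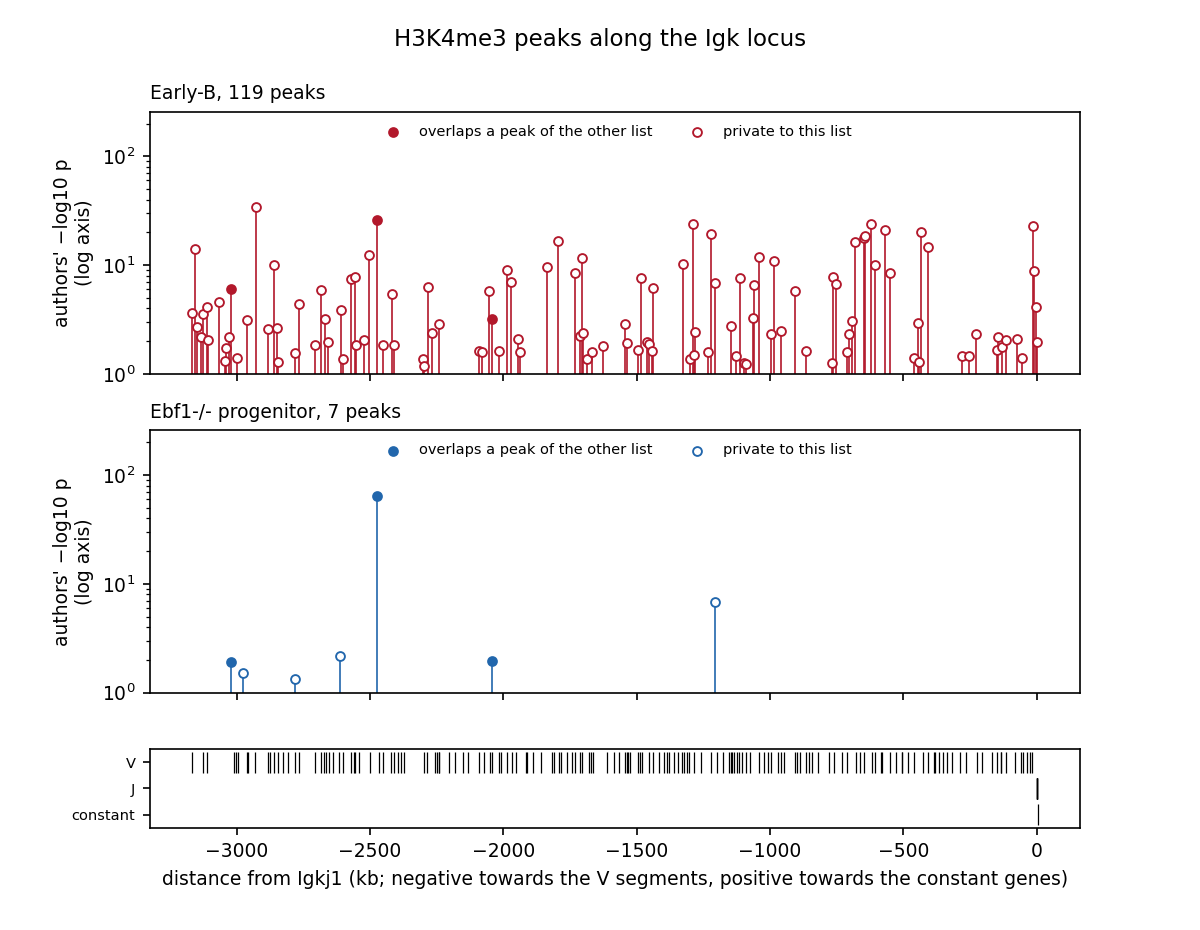
H3K4me3 peaks along Igk, with the distance of each peak's centre from Igkj1 in kb across and the authors' −log10 p on a log axis, Early-B above and progenitor below. Filled points overlap a peak of the other list, open points are private, and ticks at the bottom are annotated segments. The 119 Early-B peaks run the length of the locus, 116 of them private, and the tallest of the 7 progenitor points is the wide peak at Igkv14-111, with a −log10 p of 64.5.

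The J end of Igk held 4 Early-B peaks and no progenitor peak. Between Igkv3-1 and Igkj1, where the silencing elements Cer and Sis lie, a peak of 1596 bp had a pileup of 43.1 and a −log10 p of 22.9. A second there, 1709 bp long with a pileup of 26.0 and a −log10 p of 8.82, lay inside Gm46961. The peak at chr6:70719052-70724272, 5221 bp, took in all of Igkj1, Igkj2, Igkj3, Igkj4 and Igkj5. Its pileup of 18.2, fold enrichment of 2.35 and −log10 p of 4.12 placed it in the weaker part of its list, at rank 28021 by p, but at rank 2009 by length. It met q of at most 0.05. It also covered 75 of the 300 bases of the Gm46961 promoter printed above, at the upstream end and short of the start. The last, 772 bp with a pileup of 12.3 and a −log10 p of 1.96, lay between J and constant, where the intronic kappa enhancer lies, and ended 309 bp from Igkc, the kappa constant gene. Igkc met no peak in either list. The progenitor peak nearest to Igkj1 was 51156 bp away, outside the locus.

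The J segments therefore separated the loci. All 4 Ighj segments met the leading peak of the locus in both lists, whereas the 5 Igkj segments met a weak, wide peak in Early-B cells and none in progenitors.

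In Igl the V, J and constant segments alternate along the locus, so its peaks were placed by the nearest segment. None of 12 Igl segments, Iglc1, Iglc2, Iglc3 and Iglc4 among them, met a peak in either list. The shared peak lay about 14.5 kb from Iglc4. It had 1312 bp, a pileup of 15.7 and a −log10 p of 3.18 in Early-B cells and 1551 bp, a pileup of 22.2 and a −log10 p of 6.44 in progenitors. The 4 private Early-B peaks were 200 to 539 bp long with a −log10 p of 1.30 to 1.61, at the weak end of the list, and none met q of at most 0.05.

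Of 68 other annotated genes inside the loci, 8 met an Early-B peak and 8 a progenitor peak, and 4 met both. The 4 were Gm9517, Gm40899, Gm30948 and Gm25436. Gm9517, a pseudogene near Ighv5-7, met an Early-B peak of 338 bp (−log10 p of 8.05) and a progenitor peak of 346 bp (18.8). Gm30948, a long non-coding RNA gene in the distal part of Igh, met peaks with a −log10 p of 1.92 and 1.82. Early-B peaks alone met 4930515G16Rik (−log10 p of 14.1) and Gm46961 in Igk, and Gm30996 (1.36) and Gm9256 (4.12) in Igh. Progenitor peaks alone met the microRNA gene Mir7094-1 (1.68) and the pseudogenes Gm7019 (4.16), Gm6105 (1.33) and Gm18341 (1.94), all in Igh. These genes accounted for few of the Early-B peaks in Igk: without peaks within 1 kb of any such gene, 112 of 114 were still private. In Igh the same removal left 111 of 121 Early-B peaks, 50.5% of them private, against 50.4% of all. It left 72 of 82 progenitor peaks there. The private ones among them went from 20 to 15 (20.8%, against 22.8% of all).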

How the data were processed

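H3K4me3 ChIP-seq was analysed from 1 deposited peak list per group, matched to its group by the list's name and the samples' titles. MACS 1.4.3 and Bowtie 1.1.2 are named, with builds GRCh38 and mm10 and with no role for any of them, per the submitters' processing notes. The columns of the peak lists look like those of a later MACS than the one named, so the release that wrote them is uncertain. Not given in the sources used here were the use of input, any pooling of replicates, the handling of duplicates and the placing of reads that match several V segments. Coverage (pileup signal) and fold enrichment (a ratio) are as deposited by the authors. The deposited −log10 p column and the score taken as −log10 q have damaged names in the file headers, and were identified by their values and order. Depth is unknown, and the permissive lists set how precise any count can be. The other samples of the series were not analysed here.

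Peaks were counted from 1, closed at both ends, and shared when they overlapped by at least 1 bp. Portions run from the first to the last annotated V, D, J or constant segment in the RefSeq gene table of GRCm38.p6 (396 segments). A peak belongs to the portion holding most of its bases. Igl segments alternate, so no portions were formed there. With 1 list per group no test across samples could be run. Work was done in Python 3.11.15 with numpy 2.4.6, pandas 2.3.3 and matplotlib 3.10.9, and checked on simulated intervals. Named were all peaks in D, J, constant and interval portions, the 5 V peaks of lowest p, the widest and the highest peak per list and locus, every other gene with a peak and, whatever their result, Ighm, Ighd, Igha, Igkc, the Ighj and Igkj segments, Ighd4-1, the Iglc genes and both Adam6 genes. The members and lists were chosen with earlier results of these data known.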

Additional observations from a re-analysis of the deposited data

How the results depend on the processing

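Counts in the deposited lists were 121 Early-B and 82 progenitor peaks in Igh, and 119 and 7 in Igk. At q of at most 0.05 in both lists, Igh held 65 Early-B and 36 progenitor peaks and Igk 54 and 2, with 53 Early-B peaks and 1 progenitor peak of Igk private, and with 69.2% and 44.4% private in Igh against 45.9% and 16.2% of all peaks. At q of at most 0.01, Igh held 53 and 28 and Igk 47 and 2, with 46 and 1 private in Igk, and 77.4% and 57.1% private in Igh against 44.7% and 15.4% of all. At a −log10 p of at least 10, Igh held 9 and 10, with 7 and 8 private, and Igk 21 and 1, with 20 and 0 private, where 36.3% and 12.9% of all were. Against every progenitor peak, 4 Early-B peaks of that strength in Igh and 20 in Igk were private, and 21.1% of all. With lists of equal length, Igh held 62 Early-B peaks (29 private) against 82 progenitor peaks (49 private), and Igk held 54 Early-B peaks (51 private), where 36.2% of all Early-B and 34.3% of all progenitor peaks were private. When sharing needed 50% of a peak, 39 progenitor peaks of Igh (47.6%, against 28.9% of all) were private, and when peaks within 1 kb counted as shared, 2 progenitor peaks of Igk (28.6%, against 21.6% of all) were. Of 58 such values under the alternatives, the other 29 stayed within 1.5 times of the deposited lists' value. V peaks were recounted by midpoint and by every portion touched, and V segments with peaks within 1 kb; neither was recounted at a stricter threshold or with shorter lists. Igk held more Early-B than progenitor peaks in each setting run. In Igh the order turned with equal list lengths and at a −log10 p of at least 10. Stricter thresholds and shorter lists keep fewer peaks by construction. They also turn a shared peak private wherever they drop its partner, so private shares under them do not show absence from the deposited list. No paired analysis was possible because each group has 1 peak list, and for the same reason no replicate could be left out. Unknown depth limits each absence to these lists.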
